A study of Mus musculus with 3 samples.

Results

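Genes for the receptors and synthesis enzymes of the prostaglandins were described in the mouse metanephros, the developing permanent kidney, at 11.5 and 13.5 days post coitum (dpc). The rule named 10 genes and took every array feature whose platform annotation gave exactly 1 symbol equal to one of them and which had a log2 ratio on all 3 arrays. It found 9 genes, each on a single feature, among 19015 rows (14433 named genes and 4582 unnamed features). The tenth, Ptgs1, which encodes the constitutive cyclooxygenase, had no feature annotated with its symbol alone and was not analysed here. The genes were chosen by their log2 ratios in this same comparison, that of Ptger3 above all, since the list was drawn up with those ratios in view, so the values below describe the genes and no test is attached to them.

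The material was normal tissue of CD1 mice: microdissected 13.5 dpc fetal kidneys and 11.5 dpc metanephroi, each a pool of both sexes, with no treatment or engineered allele named. Amplified RNA of both ages was hybridised together on each of 3 two-colour 22K oligonucleotide arrays, with the 13.5 dpc RNA in channel 2 and the 11.5 dpc RNA in channel 1. The dyes were ordered red/green on arrays 1 and 2 and green/red on array 3. The labels do not mention separate dissections for the 3 arrays, so the SD over arrays may be technical, and the number of arrays limits the precision.

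Prostaglandins are short-lived lipid signals. Phospholipases free arachidonic acid from membranes, a cyclooxygenase converts it to a common precursor, and terminal synthases turn that precursor into prostaglandin E2, D2, F2-alpha or prostacyclin, which leave the cell and act on nearby G-protein-coupled receptors. In the mature kidney they adjust blood flow, renin release and salt and water transport, and in mice a working Ptgs2 gene is needed for normal nephron maturation after birth.

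Each value is a log2 ratio, read as 11.5 dpc over 13.5 dpc, which is the reverse of later over earlier: a positive value means lower at 13.5 dpc and a negative value higher at 13.5 dpc. The labels make this reading likely and do not settle it, and they do not say whether array 3 was turned to the same direction before deposit, so each sign depends on that reading. A ratio gives no level in either age, so the defining markers of the kidney could not be checked for presence, and in whole organs fewer cells of a type and less RNA per cell cannot be told apart. Array 3 stood apart from the others: the SD of its log2 ratios was 0.97, against 0.79 on array 2 and 0.56 on array 1. Its Pearson correlation was 0.11 with array 1 and -0.12 with array 2, across features that are not independent replicates. Arrays 1 and 2 also agreed only weakly, with a correlation of 0.27. Array 3 differed in its extreme values too. It held 238 rows at least 8-fold positive whose ratio was under 2-fold on both other arrays, where array 1 held 5 such rows and array 2 held 7. Array 2 held 99 such rows on the negative side, with 15 on array 3 and 0 on array 1. None of the 9 genes was among the 238 rows.

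The prostaglandin receptor gene Ptger3 had the most positive ratio of the 9 genes. It encodes EP3, the prostaglandin E2 receptor that couples mainly to inhibitory G proteins and in the mature kidney opposes vasopressin in the thick ascending limb and collecting duct. Its log2 ratio was 2.21 on array 1, 2.55 on array 2 and 1.98 on array 3, all positive and within 0.56 of each other. The mean of 2.25 ± 0.28 (SD, n = 3 arrays) is a 4.75-fold ratio and reads as lower at 13.5 dpc. The highest single value among the other 8 genes was 0.90. Of all 19015 rows, 21 had a mean at or above that of Ptger3, itself included, and 7 of them also had an SD at or below its own. By single arrays Ptger3 stood 28th from the top on array 1, 34th on array 2 and 679th on array 3, where the spread of all rows was widest.

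**Figure D1:**
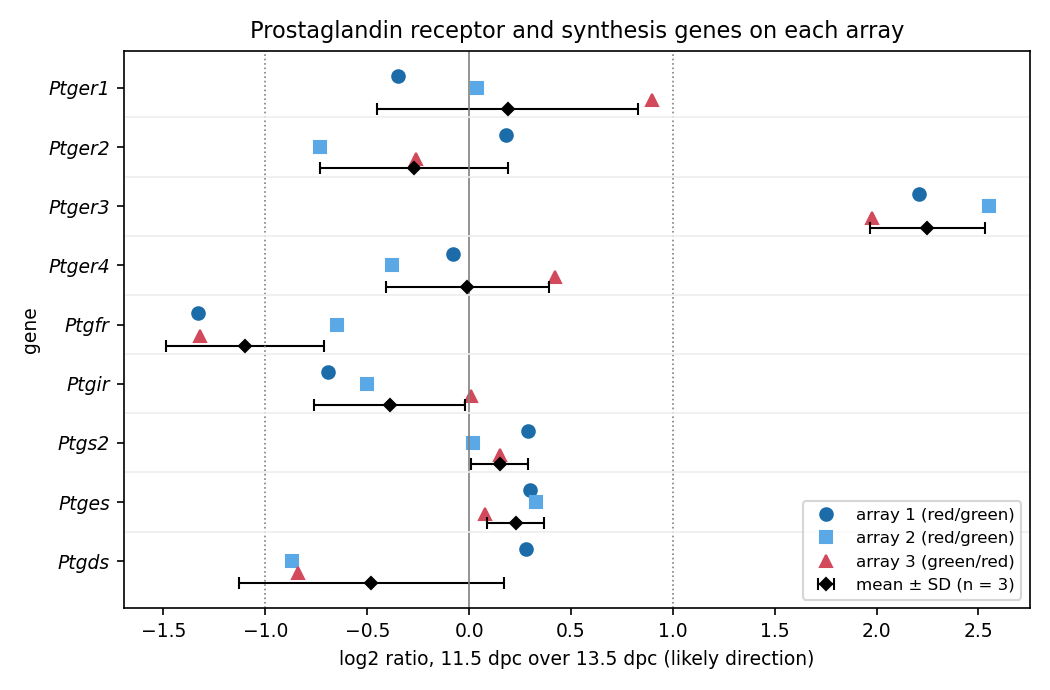
Log2 ratio (11.5 over 13.5 dpc, likely direction; horizontal axis) of each of the 9 genes on array 1 (circles), array 2 (squares) and array 3 (triangles), with the mean and SD of the 3 arrays as black diamonds and bars, and dotted lines at a 2-fold ratio. Ptger3 lies at 1.98 to 2.55 on all arrays, Ptgfr lies below 0 on all arrays, and the values of Ptger1, Ptger2, Ptger4, Ptgir and Ptgds straddle 0.

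Ptgfr was the gene with the most negative ratio. It encodes FP, the receptor for prostaglandin F2-alpha, which signals through Gq and calcium. Its log2 ratio was -1.33 on array 1, -0.65 on array 2 and -1.32 on array 3, negative on every array but short of 2-fold on array 2. The mean was -1.10 ± 0.39 (SD, n = 3 arrays), a ratio of 2.14-fold that reads as higher at 13.5 dpc, and 303rd from the bottom of all rows. On every array the log2 ratio of Ptger3 exceeded that of Ptgfr by 3.20 to 3.54.

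The other 3 receptors of prostaglandin E2 did not share the pattern of Ptger3. Ptger1, which encodes the calcium-mobilising receptor EP1, had -0.35, 0.04 and 0.90 on arrays 1, 2 and 3, a mean of 0.19 ± 0.64 (SD, n = 3). Its sign differed between arrays, and its widest value came from array 3. Ptger2 and Ptger4 encode EP2 and EP4, which raise cyclic AMP through the stimulatory G protein. Ptger2 had 0.18, -0.73 and -0.26, a mean of -0.27 ± 0.46. Ptger4 had -0.08, -0.38 and 0.42, a mean of -0.01 ± 0.40. For all 3 genes the SD was larger than the mean and the arrays lay on both sides of 0. The difference in log2 ratio between Ptger3 and each of them was positive on every array: 1.09 to 2.56 against Ptger1, 2.03 to 3.28 against Ptger2 and 1.56 to 2.92 against Ptger4. Ptger3 was picked out with its ratio known, so these differences describe the arrays and were not tested.

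Ptgir encodes IP, the prostacyclin receptor, which relaxes vessels and inhibits platelets through cyclic AMP. Its log2 ratio was -0.69 on array 1, -0.50 on array 2 and 0.01 on array 3, a mean of -0.39 ± 0.37 (SD, n = 3). Both red/green arrays were negative, and array 3 was close to 0. Ordered by mean ratio, the 6 receptors ran from Ptger3 through Ptger1, Ptger4, Ptger2 and Ptgir to Ptgfr. Apart from Ptger3 above Ptger1, each pair of neighbours in that order had overlapping array values.

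Of the 3 synthesis enzymes, Ptgs2 and Ptges had ratios close to 0 and Ptgds differed between arrays. Ptgs2, the inducible cyclooxygenase, had 0.29, 0.02 and 0.15 on arrays 1, 2 and 3, a mean of 0.15 ± 0.14 (SD, n = 3). Ptges, the inducible synthase that makes prostaglandin E2 downstream of it, had 0.30, 0.33 and 0.08, a mean of 0.23 ± 0.14. Both were positive on every array, although Ptgs2 turned negative on array 2 after median centring or quantile normalisation, at ratios of 1.11-fold and 1.18-fold, and 5858th and 4470th from the top of all rows. Ptgds, the lipocalin-type prostaglandin D synthase, had 0.28 on array 1 against -0.87 on array 2 and -0.84 on array 3. Its mean of -0.48 ± 0.65, 2019th from the bottom of all rows, joins arrays that disagree in sign, and it was -0.85 without array 1.

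**Figure D2:**
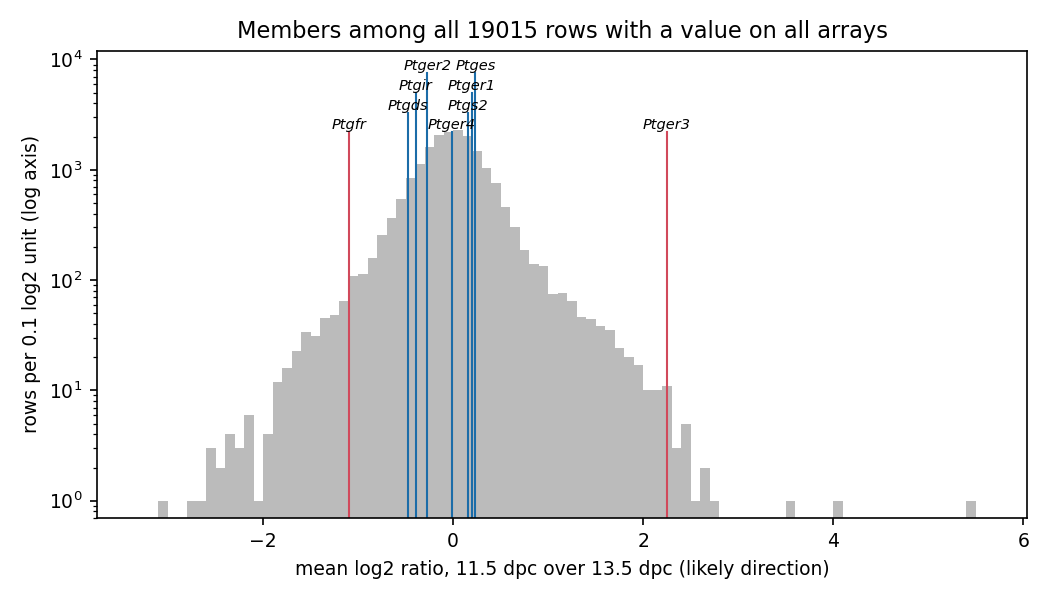
Histogram of the mean log2 ratio (11.5 over 13.5 dpc, likely direction) of all 19015 rows in steps of 0.1, with the number of rows on a log axis; vertical lines mark the 9 genes, in red for Ptger3 and Ptgfr and in blue for the others. Ptger3 at 2.25 lies in the sparse upper tail and Ptgfr at -1.10 in the lower shoulder, while the other 7 genes lie between -0.48 and 0.23, within the bulk of the rows.

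In all, 4 of the 9 genes had 1 sign on all 3 arrays, where 35.3% of all rows did. Of these, 3 were positive (Ptger3, Ptges and Ptgs2), beside 16.8% of all rows, and 1 was negative (Ptgfr), beside 18.5%. After median centring or quantile normalisation the count was 3, without Ptgs2. A ratio of at least 2-fold with 1 sign on all 3 arrays was found for Ptger3 alone, where 0.684% of all rows reached it, 0.247% positive and 0.436% negative. Ptger3 lay well inside that limit, with a smallest array value of 1.98, and the nearest gene outside it was Ptgfr, whose smallest was 0.65 in size. The median of the 9 means was -0.013, beside -0.008 over all rows, and the median SD over arrays was 0.39, beside 0.34. Ratios were listed with opposite signs in 5 of the 9 genes. Across the whole table limma called 0 of 19015 rows (0.0%) at an adjusted p of 0.05, with 1757 rows at an unadjusted p under 0.05, so no row stands out from the spread between arrays by that test.

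Each of the 9 genes rests on 1 feature, so no second oligonucleotide could be set beside it. The table shows what a second feature can do: among 846 genes with exactly 2 features, the feature means differed by a median of 0.32 log2 units, and by 1.06 at the 90th percentile. The features of 3 such genes (0.355%) lay further apart than the mean of Ptger3 lies from 0, and those of 80 genes (9.46%) further apart than the mean of Ptgfr does. These genes were not chosen for a large ratio, so the shares cannot tell how reliable a single feature picked for its ratio is.

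Other genes of the pathway came from lists of 76 genes, of which 62 had a value on all arrays. Of these 62, 13 were positive and 13 negative on all arrays, beside 16.8% and 18.5% of all rows, and 1 was at least 2-fold on all arrays, beside 0.684%. Among the positive genes, Pla2g2d, Pla2g4e and Gnas lay below the array 2 median of 0.065 on that array. The same shares are the background for the counts of each list below. The median of the 62 means was -0.10. That 1 gene was Hpgd, which encodes the dehydrogenase that starts the breakdown of prostaglandin E2 and F2-alpha. Its log2 ratio was 1.27, 1.25 and 1.39 on arrays 1, 2 and 3, a mean of 1.30 ± 0.08 (SD, n = 3), or 2.47-fold, and 268th from the top of all rows. Hpgd thus had the sign of Ptger3 on every array at a smaller ratio, the difference between them being 0.59 to 1.30 log2 units. The other measured genes of transport and breakdown were the uptake carrier Slco2a1 (-0.21 ± 0.60) and the reductases Ptgr1 (0.03 ± 0.16) and Ptgr2 (0.29 ± 0.08), and the median of the 4 was 0.16. Ptgr2 was positive on all arrays, while Ptgr1 and Slco2a1 were not of 1 sign.

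Among 10 other prostanoid synthases and receptors the median was -0.05, with 2 positive and 2 negative on all arrays and 0 at least 2-fold. The highest was Prxl2b, a prostamide and prostaglandin F synthase (0.74 ± 0.36), and the lowest was Ptgdr2, a prostaglandin D2 receptor that couples to inhibitory G proteins as EP3 does (-0.77 ± 0.43). Ptgdr2 had -1.19, -0.34 and -0.77 on arrays 1, 2 and 3, the opposite sign to Ptger3 on each. The thromboxane receptor gene Tbxa2r was also negative on all arrays, at a mean of -0.28 ± 0.32, and the haematopoietic prostaglandin D synthase gene Hpgds was positive on all arrays, at 0.50 ± 0.46. Ptgdr, the other prostaglandin D2 receptor, had values on 2 arrays only, -0.90 on array 2 and 0.42 on array 3, and was left out of the counts.

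The 13 measured genes that release arachidonate, the lipase gene Mgll among them, had a median of 0.07, with 3 positive and 3 negative on all arrays. Of the positive genes, Pla2g2d and Pla2g4e had only 0.03 and 0.02 on array 2, below its median of 0.065. Cytosolic phospholipase A2, encoded by Pla2g4a, is the main source of arachidonic acid for the cyclooxygenases, and it had -0.40, -0.54 and -0.26, a mean of -0.40 ± 0.14. The highest mean in that list, 1.38 ± 2.60 for the secreted phospholipase gene Pla2g2c, came from values of 1.55, -1.30 and 3.90 that differ in sign. The lowest was Pla2g12a at -0.84 ± 0.88. The leukotriene and lipoxygenase branch had a median of 0.02 over 12 genes, with 2 positive and 1 negative on all arrays. Its highest, the 5-lipoxygenase gene Alox5, had 0.38 and 0.39 on arrays 1 and 2 and 5.57 on array 3, so its mean of 2.11 ± 2.99 rests on array 3. Its lowest was Alox12b at -0.58 ± 0.71.

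The G proteins, adenylyl cyclases and protein kinase A genes through which these receptors signal had a median of -0.18 over 23 genes, with 4 positive and 7 negative on all arrays and 0 at least 2-fold. The cyclic AMP responsive factor gene Crem was the highest (0.75 ± 0.21) and the kinase regulatory subunit gene Prkar1b the lowest, with -0.09, -1.86 and -1.06 on arrays 1, 2 and 3. The catalytic subunit gene Prkaca had -0.55, -0.71 and -1.12, a mean of -0.80 ± 0.29. Of the inhibitory alpha subunits that EP3 uses, Gnai2 had a mean of -0.33 ± 0.32 with 3 negative arrays, and Gnai1 (-0.59 ± 0.58) and Gnai3 (-0.17 ± 0.24) had arrays of both signs. The stimulatory subunit gene Gnas was positive on all arrays at 0.20 ± 0.14, but had only 0.04 on array 2, below that array's median of 0.065. The Gq-class subunit genes differed: Gnaq was positive on all arrays (0.32 ± 0.22) and Gna11 negative on all arrays (-0.44 ± 0.44).

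**Figure D3:**
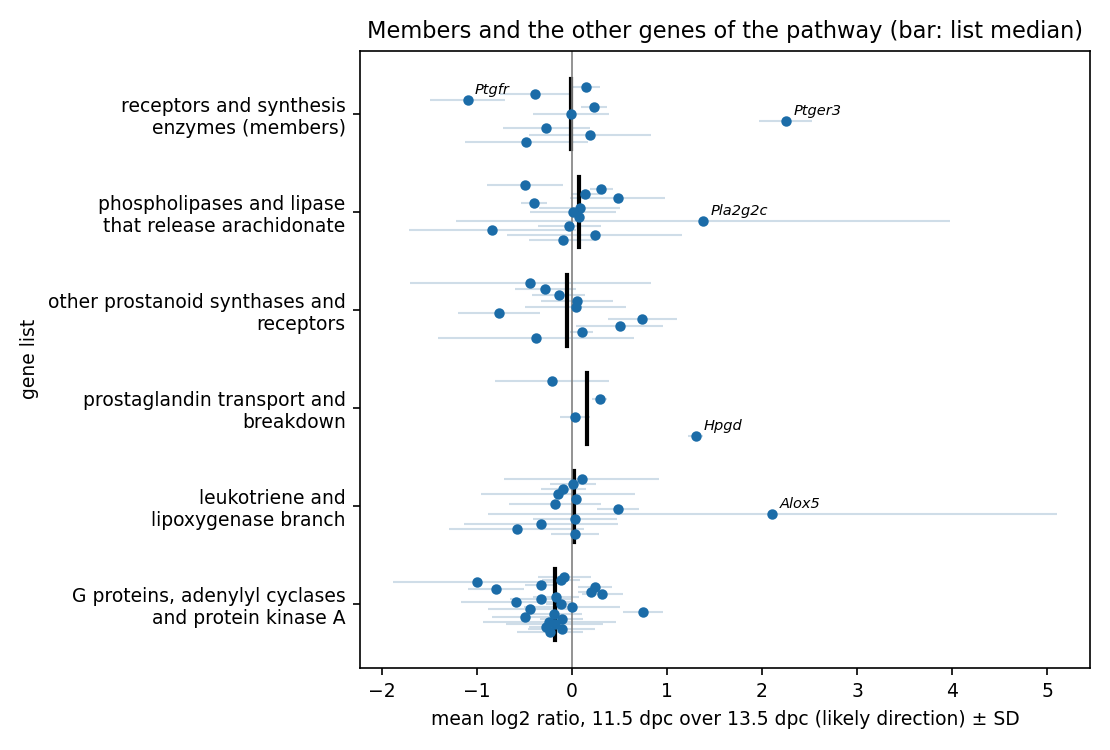
Mean log2 ratio (11.5 over 13.5 dpc, likely direction) with its SD over 3 arrays for the 9 receptor and synthesis genes and for 62 other genes of the pathway in 5 lists; each point is a gene and each black bar the median of its list. Ptger3 at 2.25 and Hpgd at 1.30 have short error bars, while the high means of Alox5 and Pla2g2c have SDs of 2.99 and 2.60.

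The 5 named genes whose values lay closest to those of Ptger3, by Euclidean distance over the 3 arrays, were Klf1, Slc20a2, Slc22a16, Art5 and Klra2, at distances of 0.29, 0.32, 0.51, 0.55 and 0.61. Klf1, the erythroid transcription factor, had 1.99, 2.42 and 2.12 on arrays 1, 2 and 3, which overlaps the range of Ptger3. Slc20a2, a phosphate transporter, had 2.30, 2.27 and 2.11. Likeness over 3 arrays is a description and carries no statement about shared control.

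Markers of cell types were set beside these values, and the lists differed in sign. The background is again 16.8% of all rows positive and 18.5% negative on all arrays. Of 9 measured erythroid markers 8 were positive on all arrays and 4 at least 2-fold, with list medians of 1.35, 1.91 and 1.24 on arrays 1, 2 and 3, the same sign as Ptger3 and Hpgd. The exception was the erythropoietin receptor gene Epor, at -0.14, 0.19 and 0.27. Stromal markers had a median of 0.36 over 5 genes, with 3 positive and 2 negative on all arrays. Among 6 nephron progenitor markers 1 was positive and 3 were negative on all arrays (median -0.19). Among 6 ureteric bud markers 2 were positive and 1 negative (median 0.13), and 0 of 3 podocyte markers had 1 sign (median -0.22). In the direction of Ptgfr, 5 of 6 endothelial markers were negative on all arrays with list medians of -0.81, -0.35 and -0.42, and 3 of 4 markers of neurons and glia were negative with list medians of -1.13, -0.88 and -0.88. Steroidogenic gonad and adrenal markers had a median of -0.64, with 3 of 5 negative and 1 positive on all arrays and list medians of -0.28, -0.04 and -0.42. The 7 smooth muscle and pericyte markers had a median of -0.13, with 3 positive and 2 negative on all arrays. The lowest was the pericyte potassium channel gene Kcnj8, at -2.59 ± 0.04. The highest, Pdgfrb, had 0.39, 0.49 and 4.53 on arrays 1, 2 and 3, so its mean rests on array 3. The part of any of these cells in the ratios of Ptger3 and Ptgfr was not tested. Megakaryocyte and platelet markers had 2 of 8 positive and 3 of 8 negative on all arrays (median -0.22). Mast cell markers had 2 of 9 and 0 of 9 (median -0.10), and macrophage markers 2 of 6 and 1 of 6 (median 0.12). Of the positive ones, the mast cell marker Cma1 had 0.0 on array 2 and the macrophage marker Cd68 0.0 on array 1. Loop of Henle and distal tubule markers, which cover only part of the tubule where EP3 acts in the mature kidney, had a median of -0.11 over 5 genes. Of these, 0 were positive and 3 negative on all arrays. The negative genes were Sim1 (-1.62, -0.75 and -1.36 on arrays 1, 2 and 3), Slc12a3 (-0.24 ± 0.21) and Umod. Umod had -0.30 and -0.03 on arrays 1 and 2 and only -0.0 on array 3. The other 2, Pou3f3 (0.38 ± 1.55) and Kcnj1 (0.13 ± 0.47), were positive on arrays 1 and 2 and negative on array 3, so the list had no common sign.

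Genes next to the members on the chromosome were compared with them. In the RefSeq gene order of GRCm38.p6, used only to find neighbours, Ptger3 lies between Zranb2 (0.06 ± 0.21) and Cth (-0.03 ± 0.13), neither of which had 1 sign on all arrays or a mean near 2.25. Ptgfr lies between Ifi44l (0.11 ± 0.25) and Gipc2, whose log2 ratios of -0.68, -0.01 and -0.63 were negative on all arrays and smaller in size than those of Ptgfr. Ptgs2 lies next to Pla2g4a, the enzyme that supplies its substrate. Their log2 ratios, with means of 0.15 and -0.40, had opposite signs on all 3 arrays as deposited. On array 2 Ptgs2 was only 0.02, and it turned negative there after median centring or quantile normalisation. Ptger2 lies between Ptgdr and Txndc16, and Txndc16 had -0.41, -0.50 and -0.30.

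With the dye order taken as a second term, each gene has an age term, which averages array 3 with the mean of arrays 1 and 2, and a dye term, which is 0.5 times the mean of arrays 1 and 2 less array 3. For Ptger3 the age term was 2.18 and the dye term 0.20, and for Ptgfr they were -1.15 and 0.17. The dye term was larger in size than the age term in 3 genes: Ptger1 had a dye term of -0.53 beside an age term of 0.37, Ptger4 had -0.32 beside 0.10, and Ptgir had -0.31 beside -0.29. If array 3 was deposited in the opposite direction to the others, the terms trade places. The mean of Ptger3 with array 3 turned was 0.92 and that of Ptgfr -0.22, and the other 7 means then lay between -0.40 and 0.18.

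**Figure D4:**
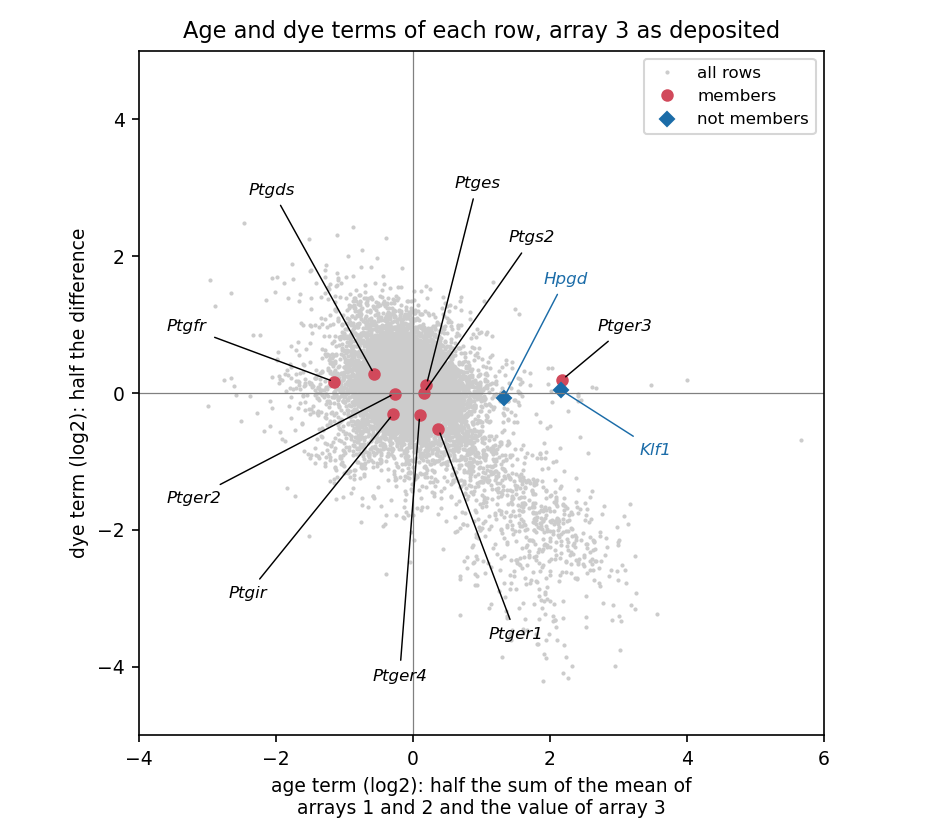
Age term (horizontal, log2, 11.5 over 13.5 dpc) and dye term (vertical, log2) of all rows in grey, the 9 genes as red circles and Klf1 and Hpgd as blue diamonds, with array 3 as deposited. Ptger3 lies at 2.18 and 0.20, beside Klf1, and away from the grey tail that runs to high age and low dye terms, which holds rows that are high on array 3 alone.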

How the data were processed

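Log2 ratios of 3 two-colour arrays were used as the authors deposited them. ImaGene 5.5 quantified the images, per the labels, which name both print-tip loess with a normalisation between arrays in R and a Lowess adjustment and do not say which was applied to the table. Base 2 was found from the values: 2 to the power of 100% of values between -3 and 2 was a multiple of 0.001, within 0.02 of a step. Spot intensities were not used here, so dim or saturated spots could not be assessed and no signal filter was applied.

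Of 22702 features, 883 control or blank features were left out, and 20386 of the 21819 gene features had a value on all arrays. Features with 1 symbol in the platform annotation were named (16656, with 137 carrying several symbols and 5026 none), and features of 1 symbol were averaged. Symbols were checked by Entrez identifier against RefSeq GRCm38.p6, which matched 15970 features and renamed none.

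All rows were tested against a ratio of 1 by limma 3.58.1 under R 4.3.3, with moderated two-sided p-values from eBayes, adjusted by Benjamini and Hochberg and called under 0.05, and the procedure was tested on simulated data. Members and lists were chosen with earlier results of these data known. Named were all members, any pathway gene at least 2-fold with 1 sign on all arrays or else a list's highest and lowest, and the 5 genes nearest to the member with the largest mean; the other pathway genes, markers and neighbours in the text were chosen after their values were seen. Alternatives were leaving out each array, turning array 3, median, scale and quantile normalisation, other ways of joining features, features on at least 2 arrays, other fold limits and a dye term.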

Additional observations from a re-analysis of the deposited data

How the results depend on the processing

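Limma passed 0 rows under each of its 11 alternatives, with 736 to 2669 rows at an unadjusted p under 0.05 (1757 as reported). With array 3 turned, the count of rows at least 2-fold with 1 sign on all arrays was 42 instead of 130, that of members with 1 sign 2 instead of 4, and that of members at least 2-fold 0 instead of 1. Leaving out 1 array gave 266 to 341 such rows, 4 to 7 members with 1 sign and 1 to 2 members at least 2-fold, the second being Ptgfr without array 2; fewer arrays then had to meet the rule. At 1.5-fold 479 rows and 2 members counted, and at 3-fold 28 rows and 1 member. Means of 3 members with mixed signs changed sign: Ptger1 (0.19) was -0.16 without array 3 and -0.40 with array 3 turned, Ptgds (-0.48) was 0.09 with array 3 turned, and Ptger4 (-0.01) was 0.02 and 0.17 without arrays 1 and 2 and 0.10 with a dye term. The mean of Ptger3 was 2.75 after quantile normalisation. Among the list medians, that of macrophage markers, 0.12 as reported, was -0.01 to 0.17 without 1 array, negative without array 2. With array 3 turned, that of steroidogenic markers was 0.03 (-0.64 as reported). Megakaryocyte and platelet markers then had 0.17 (-0.22), podocyte 0.06 (-0.22) and ureteric bud -0.06 (0.13). Smooth muscle and pericyte markers (-0.13) had 0.24 without array 3 and 0.07 with it turned. Other prostanoid synthases and receptors (-0.05) had 0.08 without array 2, and the leukotriene branch (0.02) -0.09. Erythroid (1.28), endothelial (-0.61) and neuron and glia markers (-1.06) kept their signs with array 3 turned, at 0.66, -0.23 and -0.24. The cause was not tested. Both ages lie on each array, so each log2 ratio is already a pair and no further block was fitted. Without spot intensities, signal over background could not limit any of these values.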
